A study of Mus musculus with 12 samples.

Results

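The insulin-like growth factor (IGF) binding proteins were followed in spinal cord on either side of a contusion, together with the ligand IGF1 and the receptors IGF1R and IGF2R. The members were chosen by gene symbol, with the measured group values known: IGFBP2, IGFBP3, IGFBP4, IGFBP5, IGFBP6, IGFBP7, IGF1, IGF1R and IGF2R, 9 of the 13957 gene symbols listed, and all 9 were listed at both sites. Total RNA came from segments of about 2 mm taken just above and just below a contusion at thoracic level 9, and was sequenced in 12 libraries. The mice were male, were injured at 4 months of age and killed 14 days later, and expressed human ApoE4. They were labelled as homozygous (synj1+/+) or heterozygous (synj1+/-) for synaptojanin 1, a phosphatase that breaks down PIP2 at the synapse. Each of the 4 groups, synj1+/+ above, synj1+/- above, synj1+/+ below and synj1+/- below the lesion, had 3 libraries. ApoE4 and the contusion were common to all 4 groups, so neither could be assessed, and uninjured cord and ApoE3 mice were not analysed here. Nothing in the labels ties a segment above to a segment below from the same mouse.

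IGF1 and IGF2 are secreted growth factors that signal mainly through IGF1R, a receptor tyrosine kinase that feeds the PI3 kinase, AKT and MAP kinase pathways. IGF2R, the large mannose 6-phosphate receptor, takes up IGF2 for degradation and sorts lysosomal enzymes. The IGFBPs hold IGFs in the extracellular fluid, lengthen their life there and limit or aid their access to the receptor, and proteases that cut an IGFBP release the ligand. In injured cord, activated microglia and macrophages are a known source of IGF1, and fibroblasts, meninges, vessels and astrocytes express different IGFBPs.

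The deposited table gives 1 value per gene and group, made from the 3 libraries together. No spread between libraries and no test of a difference could therefore be computed, and every comparison below is a description of pooled values. A level is given in FPKM (fragments per kilobase of transcript, scaled to the library by the authors), which is the deposited value less 1. A log2 ratio is taken on the deposited values, which are FPKM plus 1, as cord labelled synj1+/- over cord labelled synj1+/+, and a gene was counted as past the fold threshold when the ratio was 1.5 or more in either direction. SYNJ1 itself went against the labels. Above the lesion its FPKM was 1904 under the label synj1+/+ and 2403 under the label synj1+/-, and below the lesion the corresponding values were 1846 and 2592, so all directions are given between groups as labelled. Where a pair of values is given for a site, the first is cord labelled synj1+/+ and the second cord labelled synj1+/-. The 2 sites were normalized separately, and a level set across sites rests on the 2 scales being alike. Over the 12025 symbols listed at both sites, the median log2 ratio of below over above was close to 0 in both genotypes. It was -0.00080 in cord labelled synj1+/+ and 0.022 in cord labelled synj1+/-. As the values are scaled to the library at each site, such a median does not show that the 2 scales are alike.

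Below the lesion, 5 of 9 members were lower by 1.5-fold or more (IGFBP3, IGFBP4, IGFBP6, IGFBP7 and IGF1) and 0 were higher in cord labelled synj1+/-. Among all 12338 genes listed below the lesion, 4.38% were lower and 1.16% higher by this measure. Above the lesion, 0 of 9 members were past 1.5-fold in either direction, where 1.94% of 13647 genes were lower and 0.791% higher. The members were selected on these same ratios, so nothing follows from their count against these shares. The median log2 ratio of the 9 members was -0.20 above and -0.87 below the lesion, beside -0.0039 and 0.014 for all genes listed.

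**Figure D1:**
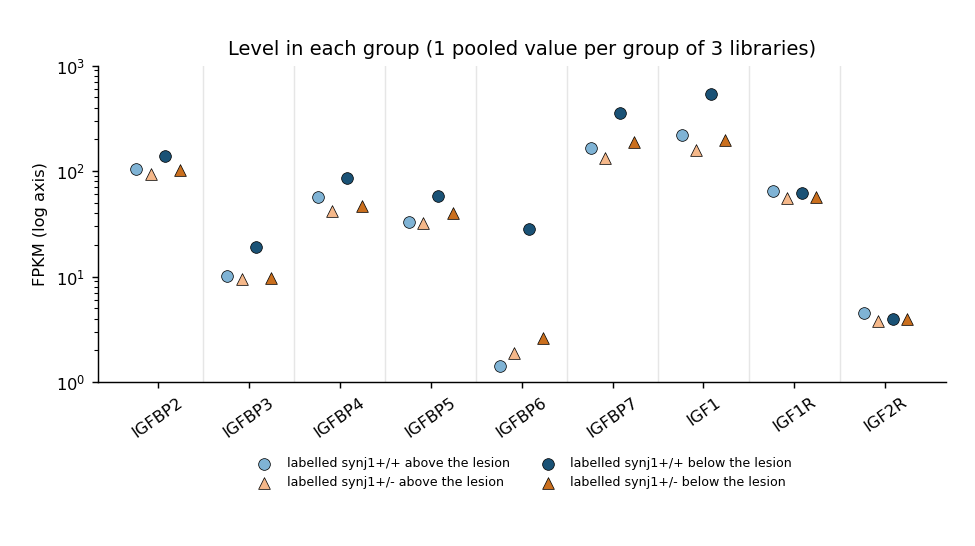
Level of each member in each group, in FPKM on a log axis, with circles for cord labelled synj1+/+, triangles for cord labelled synj1+/-, pale for above and dark for below the lesion. Each symbol is 1 pooled value without an error. For IGFBP6 cord labelled synj1+/+ below sits at 28.6 and the other groups between 1.43 and 2.63, while the symbols of IGF1R and IGF2R nearly coincide.

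The 5 members past the threshold below the lesion are shown here by their RefSeq promoter windows. A window runs from 250 bases before to 50 after the annotated start (GRCm38.p6). All 9 members had a log2 ratio under 0 below the lesion, so direction does not set these 5 apart. IGF1R and IGF2R lay nearest 0, at -0.14 and -0.01, beside a median of 0.014 for all genes listed there. The RefSeq start of IGFBP6 lies upstream of the GENCODE start given with its values, and that of IGF1 inside the GENCODE gene, so these 2 windows do not sit at the GENCODE start. Each window is written 5′ to 3′ on the strand of the gene. Capitals mark 3 motifs searched on both strands, the TATA box as TATAAA, the GC box as GGGCGG and the CCAAT box as CCAAT. The motifs did not overlap one another in these windows. IGFBP6 lies at chr15:102143936-102144235 on the plus strand, IGF1 at chr10:87860861-87861160 on the plus strand, IGFBP3 at chr11:7213874-7214173 on the minus strand, IGFBP7 at chr5:77407996-77408295 on the minus strand and IGFBP4 at chr11:99040994-99041293 on the plus strand.
IGFBP6: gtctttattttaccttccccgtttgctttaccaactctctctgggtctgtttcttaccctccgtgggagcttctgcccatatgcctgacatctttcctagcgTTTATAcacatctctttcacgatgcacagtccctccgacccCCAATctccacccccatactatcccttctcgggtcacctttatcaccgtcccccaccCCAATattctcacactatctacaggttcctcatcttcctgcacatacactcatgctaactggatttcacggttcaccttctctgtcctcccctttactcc
IGF1: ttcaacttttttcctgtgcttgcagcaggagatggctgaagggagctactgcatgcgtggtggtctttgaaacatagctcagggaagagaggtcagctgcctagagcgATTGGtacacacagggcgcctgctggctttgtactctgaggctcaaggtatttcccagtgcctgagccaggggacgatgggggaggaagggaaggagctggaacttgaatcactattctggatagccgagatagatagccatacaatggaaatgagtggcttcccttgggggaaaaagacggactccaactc
IGFBP3: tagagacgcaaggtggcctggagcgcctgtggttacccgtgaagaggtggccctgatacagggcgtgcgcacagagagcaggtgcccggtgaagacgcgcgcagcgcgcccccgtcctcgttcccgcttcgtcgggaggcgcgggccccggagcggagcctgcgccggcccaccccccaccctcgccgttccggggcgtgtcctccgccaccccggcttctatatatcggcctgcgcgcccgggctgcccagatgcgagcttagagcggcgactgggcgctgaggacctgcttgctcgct
IGFBP7: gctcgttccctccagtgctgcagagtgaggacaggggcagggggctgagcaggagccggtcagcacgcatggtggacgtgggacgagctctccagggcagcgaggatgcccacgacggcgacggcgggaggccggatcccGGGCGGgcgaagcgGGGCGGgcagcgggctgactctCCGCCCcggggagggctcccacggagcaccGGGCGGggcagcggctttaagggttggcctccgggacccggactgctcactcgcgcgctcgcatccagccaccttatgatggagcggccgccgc
IGFBP4: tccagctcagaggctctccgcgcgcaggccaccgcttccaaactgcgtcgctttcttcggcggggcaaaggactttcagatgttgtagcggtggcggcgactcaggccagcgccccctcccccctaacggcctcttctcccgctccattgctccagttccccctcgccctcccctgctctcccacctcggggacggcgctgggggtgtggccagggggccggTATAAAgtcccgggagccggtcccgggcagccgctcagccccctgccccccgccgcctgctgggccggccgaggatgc
IGFBP6 held 2 CCAAT boxes and 1 TATA box, the latter on the opposite strand and 148 bases before the start. IGF1 held 1 CCAAT box on the opposite strand, and IGFBP4 held a TATA box 28 bases before the start, the usual place for one. IGFBP7 held 4 GC boxes and IGFBP3 none of the 3 motifs. Only these exact strings were searched, so the letters tatatat in the window of IGFBP3 were not marked. No motif was shared by all 5. Of 32851 RefSeq promoter windows of this length, 13.6% held TATAAA, 35.7% GGGCGG and 37.4% CCAAT. The G and C content was 49.7% in IGFBP6 and 52.3% in IGF1, near the median of 52.7% over all windows, against 71.3% to 73.3% in IGFBP3, IGFBP4 and IGFBP7. A match is a string of letters and no evidence of binding.

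IGFBP6, a binding protein with a strong preference for IGF2, had the lowest ratio of the 9. It is encoded on chromosome 15 (102144362 to 102149511, plus strand, GENCODE M21 on GRCm38). Above the lesion its FPKM was 1.43 in cord labelled synj1+/+ and 1.90 in cord labelled synj1+/-. Below the lesion it was 28.6 and 2.63. The value of cord labelled synj1+/+ below thus stood alone, and the other 3 groups were near the bottom of the table, where 1.16% to 5.61% of the genes of a group were lower. The log2 ratio was -3.03 below, the 7th lowest of 12338 genes, and 0.26 above. This was an 8.16-fold difference on the deposited values and 10.9-fold in FPKM. With levels this low in 3 groups, the size of the fold rests on the constant of 1, although its direction does not.

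IGFBP3, the main carrier of IGFs in blood, lies on chromosome 11 (7206086 to 7213923, minus strand), 3.54 kb from the gene of IGFBP1, which was not analysed here. It had an FPKM of 10.0 and 9.54 above the lesion and 19.0 and 9.61 below, in cord labelled synj1+/+ and synj1+/-. As with IGFBP6, only cord labelled synj1+/+ below was apart. The other 3 groups differed by at most 1.05-fold on the deposited values, against 1.49-fold for IGFBP6. The log2 ratio was -0.07 above and -0.92 below.

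IGFBP7, a binding protein with low affinity for IGFs that is abundant around vessels, was the most abundant of the 6 binding proteins in all 4 groups. On chromosome 5 (77349240 to 77408041, minus strand) its annotated exons share 85 bases with those of POLR2B on the opposite strand, and the library kit does not keep the strand. POLR2B had an FPKM of 6.19 to 7.43 in the 4 groups, far under IGFBP7. For IGFBP7 it was 164 and 134 above the lesion and 353 and 187 below. The value was lower in cord labelled synj1+/- at both sites, by 1.23-fold above and 1.89-fold below, with log2 ratios of -0.30 and -0.92. Above the lesion the ratio of IGFBP7 was thus of the same sign, unlike that of IGFBP6, and farther from 0 than that of IGFBP3.

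IGFBP4, which restrains IGF action until the protease PAPPA cuts it, followed the same course from chromosome 11 (99041244 to 99054392, plus strand). Its FPKM was 57.3 and 41.9 above the lesion and 86.9 and 46.9 below. The ratio was 1.36-fold lower above and 1.83-fold lower below in cord labelled synj1+/-, and the log2 ratio of -0.44 above was among the lowest 3.77% of genes at that site. PAPPA, PAPPA2 and the PAPPA inhibitors STC1 and STC2 were not analysed here.

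IGFBP2 and IGFBP5 did not reach the threshold. They are neighbours on chromosome 1, at 72824503 to 72852474 on the plus strand and 72857932 to 72874884 on the minus strand, with 5.46 kb between them. IGFBP2, a binding protein made by astrocytes and choroid plexus, had an FPKM of 104 and 93.9 above the lesion and 138 and 102 below. IGFBP5, which binds extracellular matrix, had 32.7 and 32.3 above and 57.6 and 39.6 below. Both were highest in cord labelled synj1+/+ below, with log2 ratios below the lesion of -0.43 and -0.53. IGFBP5 was the member closest outside the threshold, at 1.44-fold lower, and IGFBP4 at 1.83-fold the closest inside. Above the lesion their log2 ratios were -0.15 and -0.02.

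**Figure D2:**
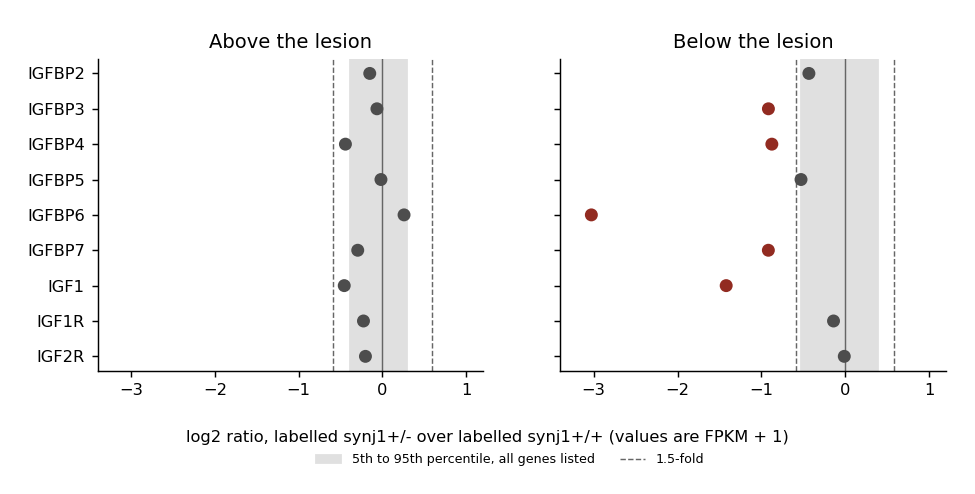
log2 ratio of cord labelled synj1+/- over cord labelled synj1+/+ (deposited values, FPKM plus 1) for each member, above the lesion on the left and below on the right. Grey spans the 5th to 95th percentile of all genes listed at that site, from -0.39 to 0.30 above and from -0.53 to 0.39 below, dashed lines mark 1.5-fold, and red points are past it; IGFBP6 lies farthest out, at -3.03 below the lesion.

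Summed over IGFBP2 to IGFBP7, the binding proteins came to an FPKM of 370 in cord labelled synj1+/+ above, 313 in synj1+/- above, 684 in synj1+/+ below and 388 in synj1+/- below. The sum was 15.4% lower in cord labelled synj1+/- above the lesion and 43.3% lower below. The make-up of the sum differed less than its size, with 1 exception. IGFBP7 made up 42.7% to 51.7% and IGFBP2 20.2% to 30.0% of it in the 4 groups, IGFBP4 12.1% to 15.5%, IGFBP5 8.42% to 10.3% and IGFBP3 2.48% to 3.05%. The exception was IGFBP6, with 4.18% in cord labelled synj1+/+ below and 0.387% to 0.677% in the others. IGFBP7 was followed by IGFBP2, IGFBP4 and IGFBP5 in every group. IGFBP6 passed IGFBP3 in cord labelled synj1+/+ below, at 28.6 against 19.0, and was the lowest of the binding proteins in the other 3 groups. Without a spread between libraries, it could not be said which neighbours in this order differ.

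**Figure D3:**
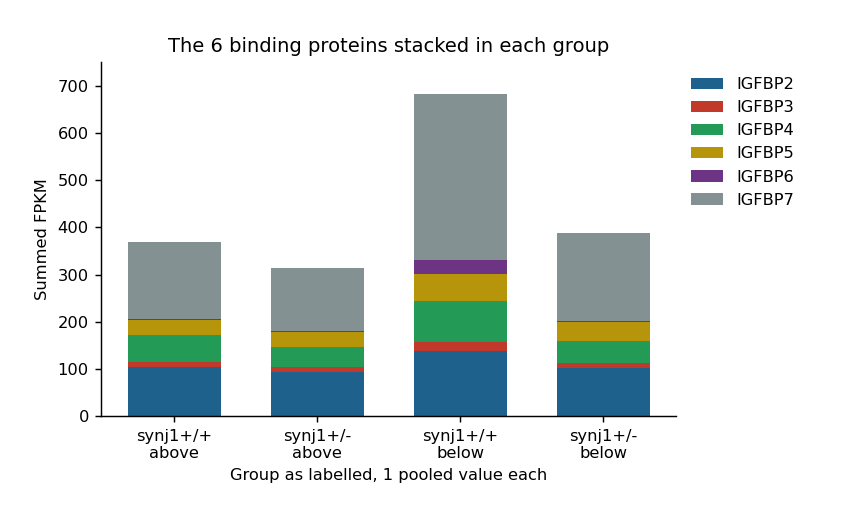
FPKM of the 6 binding proteins stacked for each group as labelled, on a linear axis from 0 (1 pooled value per group, no error). The stack of synj1+/+ below reaches 684 and the others 313 to 388, and the IGFBP6 layer can be seen only in synj1+/+ below.

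IGF1, a growth factor for neurons, myelin-forming cells and muscle, had the highest FPKM of the 9 members in every group. It is encoded on chromosome 10 (87858265 to 87937042, plus strand), where the antisense transcript Igf1os overlaps its introns and none of its exons. Above the lesion its FPKM was 218 in cord labelled synj1+/+ and 158 in cord labelled synj1+/-, and below it was 532 and 198. The RNA of this ligand was thus lower in cord labelled synj1+/- at both sites, and cord labelled synj1+/+ below was again far above the others. The ratio was 1.37-fold lower above (log2 ratio -0.46) and 2.67-fold lower below (-1.42), the latter the 67th lowest of 12338 genes. Since IGF1 differed by more than the summed binding proteins, the sum of the binding proteins per unit of IGF1 was 1.70 and 1.98 above the lesion and 1.29 and 1.96 below. This ratio leaves out the other ligand, IGF2, whose FPKM below the lesion was higher than that of IGF1, at 904 and 305. It is a ratio of RNA levels, and the secreted proteins were not measured here.

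Between the labelled genotypes the receptors differed by at most 1.17-fold on the deposited values at either site, and by at most 1.19-fold in FPKM. IGF1R (chromosome 7, 67952827 to 68233668, plus strand) had an FPKM of 65.4 and 55.7 above the lesion and 62.1 and 56.3 below, in cord labelled synj1+/+ and synj1+/-. IGF2R (chromosome 17, 12682406 to 12769664, minus strand) had 4.49 and 3.77 above and 3.98 and 3.94 below. Both receptors were highest in cord labelled synj1+/+ above, by 1.05-fold and 1.10-fold over the next group on the deposited values. Neither stood out below the lesion. Their log2 ratios were -0.23 and -0.20 above and -0.14 and -0.01 below, so for the receptors the larger of the small differences lay above the lesion. The antisense transcript Airn overlaps the introns of IGF2R but none of its exons. The level of IGF1 relative to IGF1R was 3.33 and 2.84 above the lesion and 8.56 and 3.52 below.

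Set side by side, the 4 groups show where each member was highest. The 7 secreted members were all highest in cord labelled synj1+/+ below, and the members were chosen with these values known. The share of all symbols highest there by any margin was not computed, so nothing follows from this count. For 5 of the 7 secreted members that group was highest by 1.5-fold or more over the next group (IGFBP3, IGFBP4, IGFBP6, IGFBP7 and IGF1). Of 12025 symbols, 1.67% were highest in that group by as much. For IGFBP4 it was by 1.51-fold. The other 3 groups also differed among themselves, by 1.05-fold for IGFBP3, 1.36-fold for IGFBP4, 1.37-fold for IGF1, 1.39-fold for IGFBP7 and 1.49-fold for IGFBP6. In cord labelled synj1+/+, 6 of 9 members were higher below than above the lesion by 1.5-fold or more, and in cord labelled synj1+/- 0 of 9 were. The shares over all symbols listed at both sites were 3.25% and 1.44%. From above to below, IGFBP6 differed 12.2-fold, IGF1 2.44-fold, IGFBP7 2.14-fold, IGFBP3 1.81-fold, IGFBP5 1.74-fold and IGFBP4 1.51-fold in cord labelled synj1+/+, on the deposited values. In cord labelled synj1+/- the same ratios ran from 1.01 for IGFBP3 to 1.39 for IGFBP7. This contrast between sites was chosen after the values were seen, and it shares the group values the members were selected on. The change below less the change above was -3.29 (log2) for IGFBP6, the 3rd lowest of 12025 symbols, and -0.96 for IGF1, -0.85 for IGFBP3 and -0.62 for IGFBP7. For IGF1R and IGF2R it was 0.09 and 0.19.

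The other genes of the pathway were taken from 7 lists. IGF2, the second ligand, was lower in cord labelled synj1+/- at both sites, as IGF1 was. Its FPKM was 89.4 and 62.1 above the lesion and 904 and 305 below, with log2 ratios of -0.52 and -1.56. Below the lesion it was thus 2.95-fold lower in cord labelled synj1+/-. Unlike IGF1, at 158 above and 198 below in cord labelled synj1+/-, IGF2 was far higher below than above in that cord too. The list of ligands, carrier and other binding proteins had 2 of 6 genes listed above, with 0 past 1.5-fold, and only IGF2 of the 6 below. Of the proteins that share the IGFBP-type domain, 2 of 7 listed below were lower by 1.5-fold or more. These were CCN2, a matrix-associated growth factor regulator, at 13.5 and 5.61 (log2 ratio -1.14), and HTRA3, a serine protease, at 54.8 and 30.4 (-0.83). CCN5 of the same list had a log2 ratio of 0.49, so its direction was the opposite, and above the lesion 0 of 9 listed were past the threshold. ADAM12, a metalloprotease that cuts IGFBPs, was the gene of the protease and inhibitor list with a value below, at an FPKM of 2.26 and 0.836 (-0.83). At levels this low the size of its fold rests on the constant of 1, at 1.78-fold on the deposited values and 2.71-fold in FPKM. Above the lesion that list held only HTRA1, at 186 and 155 (-0.26).

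Downstream of the receptors the values lay close together. Of the IGF1R signalling list (adaptors, PI3 kinase, AKT, mTOR and MAP kinase), 32 of 33 genes were listed above and 27 below, with median log2 ratios of -0.03 and 0.05. The one gene past 1.5-fold was SGK1, a kinase downstream of PI3 kinase, which had an FPKM of 519 and 334 above the lesion (-0.63) and 343 and 409 below (0.25). INSR, the insulin receptor, had 26.9 and 26.3 above and 28.4 and 26.5 below. In the list of insulin and growth hormone receptors 0 of 6 genes listed above and 0 of 5 below were past the threshold, and GHR, the receptor through which growth hormone induces IGF1, had log2 ratios of -0.30 and -0.41. The mannose 6-phosphate list, which holds the enzymes that make the tag IGF2R binds, had 0 of 4 past the threshold at either site. IGF2BP3, an IGF2 mRNA-binding protein, was 4.68 and 7.81 above (0.63) and 6.36 and 4.95 below (-0.31).

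Markers of several cell types moved with the members. The 13 fibroblast markers were all lower by 1.5-fold or more in cord labelled synj1+/- below the lesion (log2 ratios from -3.14 to -0.78, median -2.51), and their summed FPKM was 788 in cord labelled synj1+/+ and 158 in cord labelled synj1+/-. Above the lesion 12 were listed, 1 was lower by 1.5-fold (COL3A1, a fibrillar collagen, at 4.25 and 0.728), and the sums were 142 and 109. COL1A1 and DCN, which define fibroblasts, were 46.2 and 5.29 and 138 and 18.8 below. Their level in cord labelled synj1+/+ below stood apart from the other 3 groups as that of IGFBP6 did. Of the meningeal markers, 5 of 7 listed below were lower (SLC6A13, OGN, FOXD1, CRABP2 and FOXC1), with sums of 56.8 and 32.9, and 2 were listed above. Relative to 100 FPKM of the 12 fibroblast markers listed at both sites, IGFBP6 was 1.00 and 1.75 above and 3.65 and 1.67 below. IGF1 and IGFBP7 per 100 of the same list were lowest in cord labelled synj1+/+ below, at 67.9 and 45.1, against 126 to 153 and 115 to 122 in the other groups.

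The microglia and macrophage markers were lower in cord labelled synj1+/- at both sites, in 15 of 16 genes above (C1QA, C1QB, C1QC, TREM2 and TYROBP past 1.5-fold, median log2 ratio -0.42) and 13 of 13 below (9 past 1.5-fold, median -0.64). Their sums were 3467 and 2541 above and 4267 and 2747 below. AIF1 and TMEM119, which mark these cells, were 26.0 and 13.2 and 59.5 and 47.5 below. Above the lesion AIF1 was the exception in the list, at 17.2 and 17.7 (log2 ratio 0.04). IGF1 relative to 100 FPKM of the 13 markers listed at both sites was 7.18 and 7.12 above and 12.5 and 7.21 below, so it was nearly the same in 3 groups and higher in cord labelled synj1+/+ below. The endothelial sums were nearer to each other, at 231 and 241 above and 274 and 258 below, with 1 of 9 markers past the threshold below (CDH5) and 0 of 10 above. IGFBP7 per 100 FPKM of the 9 endothelial markers listed at both sites was 78.0 and 61.1 above and 129 and 72.3 below.

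Pericyte and smooth muscle markers had 1 of 7 past the threshold below (DES, lower; list median -0.38) and 0 of 6 above. Astrocyte markers (GFAP, AQP4 and others) had 0 of 9 past it at either site, neuron markers 0 of 11 above and 0 of 9 below. Oligodendrocyte markers had 0 of 6 and precursor markers 0 of 6 past it at each site. Short of the threshold, all 9 neuron markers listed below were higher in cord labelled synj1+/- (median log2 ratio 0.19). Of the astrocyte markers, 8 of 9 were lower there (median -0.17). As a check of the labelled tissue, SNAP25 (5238 to 6928), GFAP (8484 to 12974) and MOBP (9723 to 10915), which define these cells, had a high FPKM in all 4 groups. Ependymal markers had 1 of 4 higher at each site, TMEM212 in both, and leukocyte markers 1 of 2 lower below (S100A8; list median -0.74, sums 18.8 and 11.9) and 0 of 2 past the threshold above. Red blood cell genes were higher in cord labelled synj1+/- in 5 of 5 above (sums of 248 and 1133) and 1 of 5 below (ALAS2; 629 and 825). In a bulk sample, fewer cells of a type and less RNA per cell cannot be told apart. The part of fibroblast, meningeal, microglial, mural, astrocyte, neuronal, leukocyte or red cell RNA in the differences of the members was not tested.

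**Figure D4:**
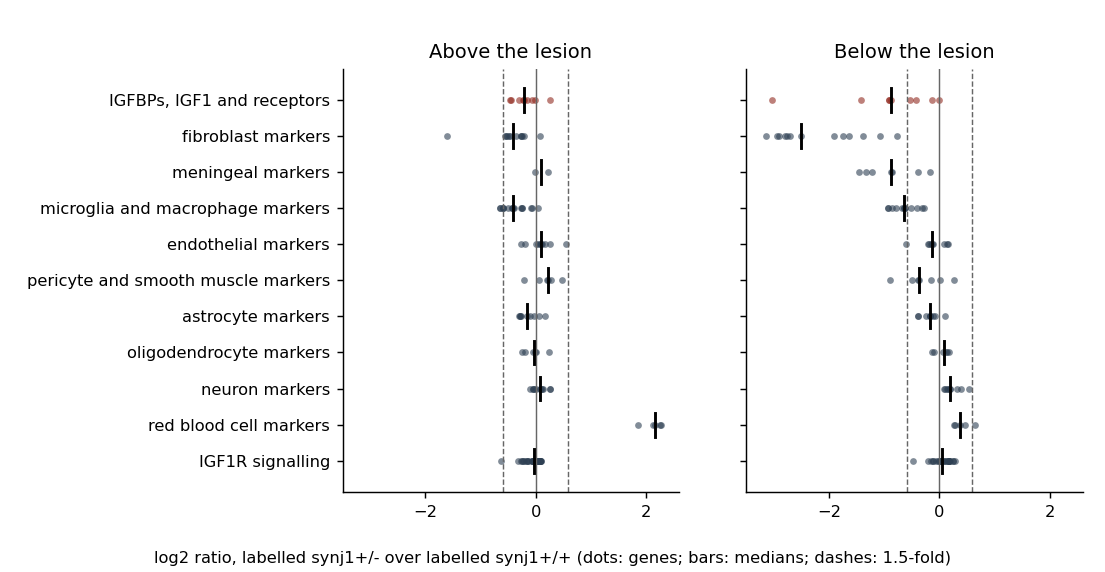
log2 ratio of cord labelled synj1+/- over cord labelled synj1+/+ (deposited values) for each listed gene of the members, of 9 marker lists and of the IGF1R signalling list, above the lesion on the left and below on the right. Dots are genes, black bars list medians and dashed lines 1.5-fold; the fibroblast median lies at -2.51 below the lesion, the median of the members at -0.87 and that of IGF1R signalling at 0.05.

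The genes whose pair of log2 ratios (above, below) lay nearest to that of a member were sought among 11941 symbols with an FPKM of at least 1 in every group, by Euclidean distance. For IGFBP6 the 5 nearest were SFRP4, H19, MGP, ISLR and COL1A2, at distances of 0.33 to 0.69. SFRP4, a secreted Wnt antagonist, had an FPKM of 1.46 and 1.57 above and 29.2 and 2.08 below, which are nearly the values of IGFBP6. H19, a non-coding RNA whose gene adjoins that of IGF2, was 3.17 and 4.08 above and 45.6 and 3.34 below. MGP, the matrix Gla protein, was 4.92 and 4.09 above and 101 and 10.0 below. ISLR and COL1A2 are also on the fibroblast list. For IGF1 the nearest were MFAP2, EMILIN1, ANKRD23, COL4A1 and IGF2, at 0.07 to 0.16. MFAP2 and EMILIN1 are elastic fibre proteins and COL4A1 a basement membrane collagen, and COL4A1 had an FPKM of 15.1 and 11.8 above and 40.2 and 15.3 below. For IGFBP7 they were S100A11, CMTM7, CD53, TGFBI and NUPR1, at 0.04 to 0.07, of which CD53 is a tetraspanin of leukocytes, at 12.3 and 10.3 above and 24.0 and 12.3 below. The pairs rest on 2 ratios each, so many genes lie near one another.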

How the data were processed

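RNA from spinal cord was sequenced by the authors with a TruSeq v2 kit, which does not keep the strand. Before alignment they reduced all libraries of a site at random to the read number of the smallest. The submitters' processing notes name STAR 2.5.4b, Cuffdiff 1.3.0 and GRCm38.p6, and the methods add bowtie2, samtools and upper quartile normalization. The deposited table lists only genes whose test ran, and gives 1 value per gene and group of 3 libraries. Because the lowest deposited value is exactly 1, the values were read as FPKM plus 1, a reading no source states. The lowest row maximum was 2.18 above and 2.21 below, so genes low in both groups were not analysed here. The authors' own fold changes, p-values and q-values, and a second table with only such columns, were not used. Groups follow the genotype and site given in the sample labels. With pooled values, the depth of single libraries, the spread between them and any test were out of reach, and no interval could be given.

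From these values FPKM, log2 ratios, counts past 1.5-fold, sums over lists and ranks were computed with Python 3.11.15, numpy 2.4.6 and pandas 2.3.3, and figures were drawn with matplotlib 3.10.9. The counting was tested on simulated data. The 9 members, the 7 pathway lists, the 13 marker lists and the alternatives were chosen with earlier results of these data known. Of the marker lists, 1 is not reported here. The genes named are the members, SYNJ1, pathway genes past 1.5-fold (at most 10 per site) with IGF2, INSR and PAPPA, defining genes of marker lists that moved with a member, and the 5 genes nearest to each of the 3 members with the largest ratio below the lesion. Other list genes were named after their values were seen, as was POLR2B, for its overlap with IGFBP7. Gene positions are from GENCODE M21, and promoter letters from RefSeq, which held a window for all 9 members.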

Additional observations from a re-analysis of the deposited data

How the results depend on the processing

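Alternatives to the main processing were a 2-fold threshold, FPKM without the constant, FPKM plus 0.1, centring on the median gene, and a mean FPKM of at least 1 or 10. Of 5 members past 1.5-fold below the lesion, 2 (IGFBP6 and IGF1) were past 2-fold, where 1.3% of all genes were lower and 0.162% higher. The count was 5 without the constant, with 0.1 added and after centring. It was also 5 under both filters, but IGFBP3 (19.0 and 9.61) and IGFBP6 (28.6 and 2.63) pass a mean of 10 only through the higher group, so the filter says nothing about them; 3.14% of the genes left by it were lower. Above the lesion the count was 0 under all 6. Without the constant, the log2 ratio of IGFBP6 below moved from -3.03 to -3.44. All 81 recomputed ratios and site differences of single members stayed on their side of 1.5-fold and in their direction. Of 120 list counts under the 3 rescalings, 11 differed by over 1.5 times, among them the fibroblast markers above the lesion (4 in place of 1 without the constant) and the microglia markers above (3 in place of 5 after centring). At 2-fold, 13 of 40 list counts differed as much, with microglia markers at 0 in place of 5 above and 9 below, and meningeal markers below at 3 in place of 5. Centring the contrast of below over above, an alternative chosen after seeing the data, left the counts of 6 and 0 as they were. Without the constant, 531 genes above and 914 below were past 1.5-fold, against 373 and 684. Leaving out a library was not possible with pooled values. No paired analysis was possible because the deposited values are pooled per group and no result comes from a test. The group values carry no error, so no difference at either site can be set against the spread between libraries, and whether 1 library carries the high values of cord labelled synj1+/+ below could not be seen.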
